A study of Caenorhabditis elegans with 2 samples.

Results

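The genes described here are the nuclear genes of oxidative phosphorylation of the nematode Caenorhabditis elegans, and the measurement is where tagged HRDE-1 was recovered on chromatin around them. The genes were taken from the WBcel235 annotation by symbol: nuo, gas, sdha to sdhd, cyc, isp, ucr, cox, atp, asb or asg followed by a number. This gave 44 of the 19973 nuclear protein-coding genes. They were 7 genes of complex I, 4 of complex II, 7 of complex III, 2 cytochrome c genes, 7 subunit genes of complex IV, 8 further cox genes named for the assembly of complex IV, and 9 genes of complex V.

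Oxidative phosphorylation passes electrons from NADH and succinate through complexes I to IV of the inner mitochondrial membrane, with cytochrome c as the soluble carrier before complex IV. The proton gradient that this builds drives the ATP synthase, complex V. In animals a few core subunits are encoded in the mitochondrial genome, and the others are encoded in the nucleus and imported. HRDE-1, also called WAGO-9, is an Argonaute protein of germline nuclei, guided by small RNAs, and takes part in silencing that is passed on to progeny.

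The assay was ChIP-seq, the sequencing of DNA that is recovered with a protein from chromatin, in strain YL557, a transgenic line that expresses WAGO-9 fused at its C-terminus to GFP-FLAG. Whole hermaphrodites were collected as young adults, 48 hours after their release from starvation as bleach-synchronized L1 larvae, and their chromatin was sonicated. The sample description names an anti-GFP antibody for the precipitation, although hrde-1 is entered as the antibody elsewhere in the labels. There was 1 group of 2 biological replicates, with no untagged strain analysed here, so no comparison between conditions and no test between groups could be made. Whole animals mix germline and somatic nuclei, no marker of a cell type was measured, and a site in few cells cannot be told apart from a weak site in many. Which promoter drives the tagged protein is not given in those labels.

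The files were lists of called sites, each with a summit and a signal value, which is the authors' score of the site on a scale that is not stated. The list of the pooled reads held 30000 candidate sites, that of replicate 1 held 24269 and that of replicate 2 held 30000. A list thresholded by reproducibility between the replicates (irreproducible discovery rate, IDR) held 1341 sites, of which 1319 were nuclear, with signal values of at least 73.95. They equal ranks 1 to 1341 of the pooled list by signal, and the rank is given beside each value. Signal values were compared only within 1 list, and the read depth behind them is unknown. A gene was counted when a summit lay in the gene or in the 500 bp next to it on either side. As the shares of groups of genes rest on few genes, they are given with 95% exact (Clopper-Pearson) intervals, which cover counting error only.

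IDR sites lay at 12 of the 44 oxidative phosphorylation genes, which is 27.3% (interval 15.0 to 42.8%). Of all nuclear protein-coding genes, 8.17% had one (interval 7.79 to 8.56%). The 12 genes were atp-1, atp-2 and atp-5 of complex V, cox-4, cox-5A, cox-5B and cox-6B of complex IV, cyc-1, ucr-1 and ucr-2.3 of complex III, the cytochrome c gene cyc-2.1, and nuo-2 of complex I. None of the 4 genes of complex II and none of the 8 further cox genes had one; assembly factors of complex IV with other symbols are given with the remainder of the pathway. The genes are not replicates, some summits lie beside several genes, and the members were chosen with results of these data known, so the difference in share is a description and was not tested.

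**Figure D1:**
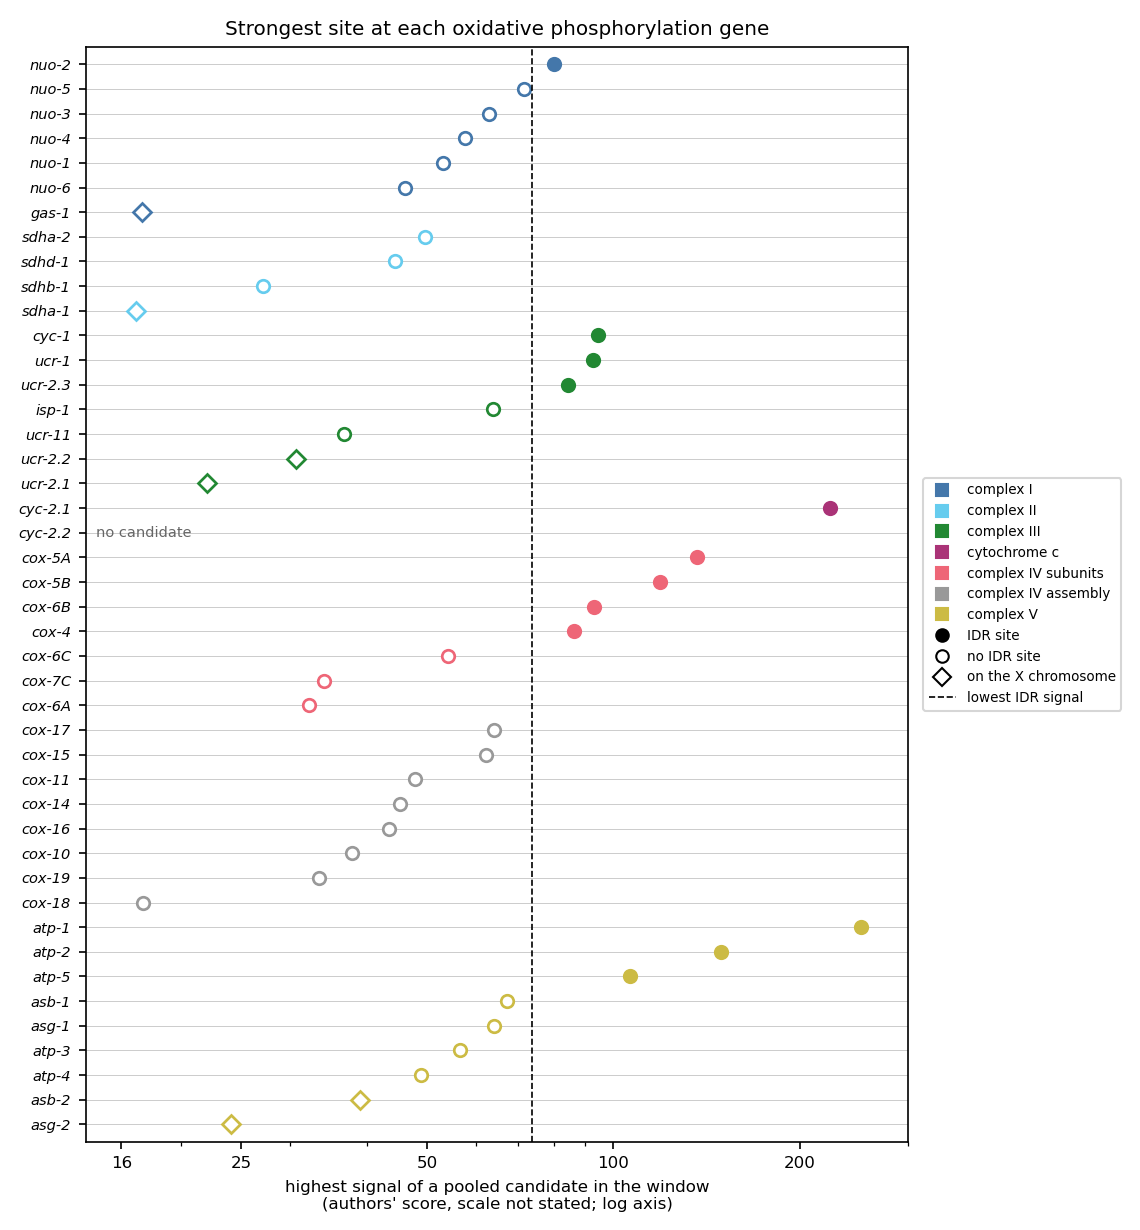
Highest signal of a pooled candidate (log axis, the authors' score) in the window of each of the 44 genes, in rows by complex; filled points have an IDR site, diamonds are genes on the X chromosome, and the dashed line is the lowest IDR signal, 73.95. The 12 filled points lie between 80.1 for nuo-2 and 251 for atp-1, 43 genes have a candidate, cyc-2.2 has none, and the 6 X-linked genes lie at or below 38.8.

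Below the IDR threshold, weaker candidates were found at almost every one of these genes. In the pooled list 43 of the 44 had a candidate, against 55.6% of all protein-coding genes. In replicate 1 the count was 42, against 56.3% of all genes, and in replicate 2 it was 41, against 56.8%. The gene without a candidate in any list was cyc-2.2. The median of the highest signal per gene, with genes without a candidate set to 0, was 53.4 for the 44 genes and 17.6 for all protein-coding genes in the pooled list. It was 17.5 for the 44 genes and 8.11 for all genes in replicate 1, and 40.0 for the 44 genes and 14.6 for all genes in replicate 2. The median length was 1655 bp for the 44 genes and 2027 bp for all protein-coding genes.

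Complex V, the ATP synthase, held the highest value of the 44 genes. The gene atp-1 encodes the alpha subunit of its catalytic head, and an IDR site with signal 251, rank 50 of the pooled list, had its summit 139 bp past the annotated 3′ end. The strongest candidate within 250 bp of it had signal 87.6 and rank 37 in replicate 1, and signal 164 and rank 76 in replicate 2; replicate values of the other sites are given in the same way. A second IDR summit with signal 125 lay 340 bp past the same end. The facing gene T26E3.7 has its 3′ end across a gap of 358 bp from atp-1, so this second summit lay nearer to T26E3.7. In replicate 1 both summits had the same candidate, so they are not 2 independent sites there, and in replicate 2 the second had its own candidate of signal 130 and rank 150.

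The catalytic beta subunit is encoded by atp-2, whose IDR site had signal 149 (rank 219) with its summit 88 bp past the 3′ end. Its replicate values were 47.9 (rank 221) in replicate 1 and 105 (rank 245) in replicate 2, so it stood at a like rank in all 3 lists. The next gene, prmt-5, which encodes an arginine methyltransferase, starts 18 bp after atp-2 on the same strand, and the summit lay 69 bp inside it. The gene atp-5 encodes subunit d of the stalk. Its site had signal 106 (rank 570) at 175 bp past the 3′ end, with 24.4 (rank 1379) in replicate 1 and 84.5 (rank 459) in replicate 2. In replicate 1 it therefore fell just short of the 1341 strongest candidates, whose lowest signal was 24.6. The stretches around both summits are shown because these sites lie just past the genes they are counted for; they are read on the strand of the gene from WBcel235, and capitals mark the 11 bases centred on the summit. The atp-2 stretch is chrIII:5230579-5230699, plus strand, cut to the coding sequence of prmt-5 and beginning at its start codon. The atp-5 stretch is chrV:11122651-11122801, minus strand, outside annotated coding and untranslated sequence.
atp-2: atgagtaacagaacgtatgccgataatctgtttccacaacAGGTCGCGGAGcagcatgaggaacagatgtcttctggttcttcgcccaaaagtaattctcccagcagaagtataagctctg
atp-5: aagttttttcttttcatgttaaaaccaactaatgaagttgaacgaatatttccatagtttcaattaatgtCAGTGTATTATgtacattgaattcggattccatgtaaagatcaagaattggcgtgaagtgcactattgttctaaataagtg

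The other 6 genes of complex V had candidates but no IDR site. The highest were asb-1, which encodes a germline form of subunit b of the membrane part, with pooled signal 67.4 (rank 1647), and asg-1, for subunit g, with 64.1 (rank 1838). The remaining 4 genes of the complex lay between 24.1 and 56.4. In the pooled list 3 of the genes of complex V thus stood between 106 and 251 and 6 at 67.4 or below. In replicate 1 atp-4, for a further subunit of the stalk, had 24.9 (rank 1297), which was above atp-5 and among the strongest 1341.

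Cytochrome c is encoded by cyc-2.1 and cyc-2.2, of which one had the highest signal after atp-1 and the other no candidate at all. The strongest cyc-2.1 site had signal 224 (rank 70) with its summit 52 bp inside the annotated start, and in the replicates its values were 57.8 (rank 117) in replicate 1 and 174 (rank 61) in replicate 2. A second site of signal 103 (rank 642) lay 214 bp past the 3′ end, with 39.4 (rank 400) in replicate 1 and 65.1 (rank 918) in replicate 2. At cyc-2.2 no candidate was called in any of the 4 lists.

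The cyc-2.1 gene lies close between 2 others on its strand: its start is 110 bp after rpl-20, for a cytosolic ribosomal protein, and tctn-1 begins 62 bp after its 3′ end. The start summit lay 163 bp past the 3′ end of rpl-20, and the second summit 151 bp inside tctn-1. Both stretches are shown because they are the sites of the gene with the highest signal at a start; capitals mark the 11 bases around each summit. The first is chrIV:4748885-4748967, minus strand, the part that lies in an intron of cyc-2.1, and the second is chrIV:4747606-4747756, minus strand, in coding sequence of tctn-1. In the RefSeq annotation of the same assembly cyc-2.1 begins further in, and the first summit is then 511 bp upstream of its start, outside the window.
cyc-2.1 start: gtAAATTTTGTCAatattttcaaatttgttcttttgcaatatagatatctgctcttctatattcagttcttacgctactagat
cyc-2.1 3′ end: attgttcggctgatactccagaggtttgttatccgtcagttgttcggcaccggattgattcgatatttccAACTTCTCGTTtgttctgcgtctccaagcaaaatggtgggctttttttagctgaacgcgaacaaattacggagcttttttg

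In complex IV, cytochrome c oxidase, IDR sites lay at 4 of the 7 subunit genes (57.1%, interval 18.4 to 90.1%) and at 0 of the 8 cox genes named for assembly (interval up to 36.9%). The 4 include cox-6B, whose site depends on a long gene model, and with RefSeq ends the count was 3 of 7. The difference was not tested, the intervals overlap, and the division follows gene symbols, since the assembly genes coa-4 and coa-5 had IDR sites. The median highest pooled signal was 86.3 for the subunit genes, or 54.0 with RefSeq ends, and 44.2 for the 8 assembly genes. In replicate 1 the order was the reverse, with 17.0 for the subunit genes and 18.6 for the assembly genes. In replicate 2 the subunit genes had 65.9 and the assembly genes 29.8. This 65.9 is the value of cox-6B itself, at the site that depends on the long gene model. Medians with RefSeq ends were taken for the pooled list only. Among the 8 assembly genes the highest were cox-17, for a copper carrier, with 64.1 (rank 1833), and cox-15, for haem A synthesis, with 62.1 (rank 1965), and the other 6 lay between 17.3 and 47.8.

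Of the subunit genes, cox-5A had 2 IDR sites, one on each side. The summit 171 bp past its 3′ end had signal 136 (rank 277), with 28.8 (rank 881) in replicate 1 and 108 (rank 230) in replicate 2. The summit 273 bp upstream of its start had signal 119 (rank 410), with 47.5 (rank 230) in replicate 1 and 71.2 (rank 748) in replicate 2. The replicates thus put the 2 sites in opposite order. No other protein-coding gene begins or ends within 500 bp of either summit, and so the pair is shown as the case where a gene's own ends are the nearest by far. The first stretch is chrIII:12906715-12906865 and the second chrIII:12905143-12905293, both on the plus strand and outside annotated coding and untranslated sequence, with the 11 bases around each summit in capitals.
cox-5A 3′ end: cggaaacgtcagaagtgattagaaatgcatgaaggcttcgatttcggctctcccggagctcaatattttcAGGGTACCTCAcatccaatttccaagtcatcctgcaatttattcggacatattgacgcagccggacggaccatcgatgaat
cox-5A start: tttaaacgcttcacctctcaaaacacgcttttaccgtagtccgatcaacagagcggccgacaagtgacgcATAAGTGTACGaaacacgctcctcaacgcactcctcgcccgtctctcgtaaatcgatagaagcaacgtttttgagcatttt

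The gene cox-5B also had 2 sites. The summit 25 bp upstream of its start had signal 119 (rank 414), with 40.1 (rank 380) in replicate 1 and 79.0 (rank 569) in replicate 2. The summit 8 bp before its 3′ end had signal 87.4 (rank 925), with 18.3 (rank 2934) in replicate 1 and 68.2 (rank 826) in replicate 2. The start site was among the strongest 1341 of both replicates, and the 3′ site was so in replicate 2. With RefSeq ends the same summits lie 309 bp upstream of the start and, past the 3′ end, at 191 bp.

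The gene cox-4 had a single IDR site of signal 86.3 (rank 962) at 98 bp past its 3′ end. The facing gene sac-2 has its 3′ end across a gap of 3 bp from cox-4, so the summit lay nearer to the 3′ end of sac-2. Of the 17 IDR sites it had the lowest rank in replicate 1, with 16.8 (rank 3681) there and 73.2 (rank 693) in replicate 2. The site counted for cox-6B, with signal 92.9 (rank 805), lies 26079 bp inside an Ensembl gene model that is 87197 bp long, at 374 bp upstream of the meiotic crossover gene cosa-1. In RefSeq cox-6B is 553 bp long and this summit is 60460 bp from its start, so it is not a site at the short gene. With RefSeq ends for all members, 11 of the 44 genes had an IDR site in the window, with starts marked at 4 genes and 3′ ends at 10. The other 3 subunit genes, cox-6A, cox-6C and cox-7C, had no IDR site, and their pooled values lay between 32.2 and 54.0.

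In complex III, which passes electrons from ubiquinol to cytochrome c, IDR sites lay at 3 of 7 genes. Cytochrome c1 is encoded by cyc-1. Its start site, with its summit 322 bp upstream of the start, had signal 94.3 (rank 773), with 34.1 (rank 587) in replicate 1 and 61.3 (rank 1056) in replicate 2. Its 3′ site, 109 bp past the end, had signal 86.7 (rank 944), with 32.8 (rank 645) in replicate 1 and 56.9 (rank 1310) in replicate 2. Both sites were among the 1341 strongest of each replicate. The start summit was nearer to another gene, as it lay 136 bp past the 3′ end of C54G4.9, which precedes cyc-1 on the same strand.

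The core proteins of complex III are encoded by ucr-1 and the ucr-2 genes. The ucr-1 site had signal 92.7 (rank 812) at 175 bp past the 3′ end, with 37.7 (rank 456) in replicate 1 and 58.0 (rank 1250) in replicate 2. The ucr-2.3 site had signal 84.5 (rank 1004) at 171 bp past the 3′ end, with 26.8 (rank 1056) in replicate 1 and 73.5 (rank 685) in replicate 2. Both were thus among the strongest sites of each replicate, at almost the same distance from the gene. Their surroundings differ, as the ucr-2.3 summit lies in an annotated untranslated region and the ucr-1 summit outside annotated coding and untranslated sequence. The 3′ end of the facing gene zer-1 overlaps ucr-2.3. The iron-sulphur protein gene isp-1 had no IDR site but a pooled candidate of 63.9 (rank 1848), and ucr-11, ucr-2.1 and ucr-2.2 lay between 22.0 and 36.6. The ucr-1 stretch is shown because an RNA gene, F56D2.9, is annotated over it; it is chrIII:5594501-5594651, plus strand, with the 11 bases around the summit in capitals.
ucr-1 3′ end: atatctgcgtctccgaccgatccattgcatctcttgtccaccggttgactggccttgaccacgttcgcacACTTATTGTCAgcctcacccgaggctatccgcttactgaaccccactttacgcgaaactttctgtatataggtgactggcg

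Complex I, the NADH dehydrogenase, had an IDR site at 1 of 7 genes. That gene was nuo-2, for a core subunit of the peripheral arm, with signal 80.1 (rank 1132), the lowest of the 12 genes. Its replicate values were 18.2 (rank 2978) in replicate 1 and 62.0 (rank 1018) in replicate 2. The summit lay 42 bp upstream of its start and 22 bp before the 3′ end of T10E9.14, which lies 19 bp ahead on the same strand. Just outside the IDR list was nuo-5, a further core subunit, with 71.7 (rank 1435). Further below it were nuo-3 with 62.8 (rank 1922) and nuo-4 with 57.5 (rank 2270). In single replicates nuo-4 was among the 1341 strongest of replicate 1 (27.8, rank 963) and nuo-3 among those of replicate 2 (56.7, rank 1322). The gene gas-1, for a core subunit, had the lowest pooled value of the complex, 17.3.

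Among the members, complex II, succinate dehydrogenase, had the lowest median of the 5 complexes, 35.7 in the pooled list. Its flavoprotein is encoded by sdha-1 and sdha-2. The pooled values were 16.9 for sdha-1, 49.5 for sdha-2, 27.1 for sdhb-1, the iron-sulphur subunit, and 44.4 for sdhd-1, a membrane anchor. In replicate 1 they were 7.72, 11.5, 16.5 and 7.30 in that order, and in replicate 2 they were 14.8, 37.2, 21.3 and 39.7. All 4 had a candidate in the pooled list and in both replicates, and the order of the genes differed between the replicates. No IDR site was found at 4 genes, which allows a share of up to 60.2%. The order of the medians holds only for genes chosen by symbol. The cytochrome b subunit gene of complex II, mev-1, was left out of them and had 52.8. Also left out were 26 further subunits of complex I, with a median of 40.3.

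**Figure D2:**
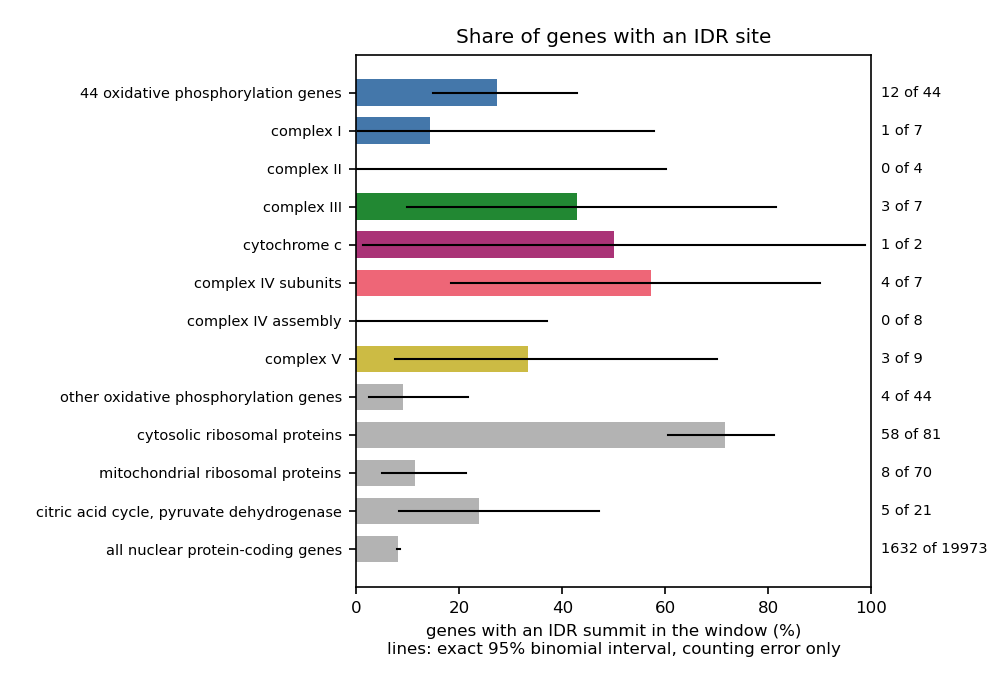
Share of genes with an IDR summit in the window, in percent, for the 44 genes, for each complex, and for other gene groups; lines are exact 95% intervals for counting error. The 44 genes stand at 27.3% and all protein-coding genes at 8.17%, and the intervals of the single complexes are wide and overlap each other.

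Where the sites lay relative to the genes was compared between start and 3′ end, each taken as 500 bp on either side. An IDR summit lay at the start of 5 of the 44 genes (11.4%, interval 3.79 to 24.6%), against 2.91% of all protein-coding genes. It lay at the 3′ end of 10 genes (22.7%, interval 11.5 to 37.8%), against 5.36% of all genes. Only the start was marked at nuo-2, only the 3′ end at 6 genes and both ends at cox-5A, cox-5B, cyc-1 and cyc-2.1. Among all genes 418 had a summit at the start only, 908 at the 3′ end only and 163 at both, so 3′ ends outnumber starts in both groups, and no difference between the groups in this order was tested.

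As 12 of the 44 genes are shorter than 1000 bp, the windows at their ends overlap, and flanks outside the gene were counted too. The 500 bp upstream held an IDR summit at 4 of the 44 genes, against 2.08% of all genes, and the 500 bp downstream at 9, against 3.99%. The strongest pooled candidate of a gene lay upstream for 20.9%, within the gene for 32.6% and downstream for 46.5% of the 43 genes with one. For the 11112 protein-coding genes with one, it lay upstream for 17.4%, within the gene for 52.5% and downstream for 30.1%. The downstream flank was the most frequent place of the 3 for the members in replicate 1 (18 of 42) and in replicate 2 (21 of 41) as well. Within the gene the counts were 16 in replicate 1, so close to the downstream count, and 12 in replicate 2. For all protein-coding genes with a candidate, the downstream share was 27.7% in replicate 1 and 28.9% in replicate 2. Their share within the gene was 56.7% in replicate 1 and 54.0% in replicate 2. Among the strongest 1341 candidates of single replicates, starts were marked at 5 of the 44 genes in each, against 2.8% of all genes in replicate 1 and 2.77% in replicate 2. The 3′ ends were marked at 9 of the 44 genes in replicate 1, against 5.62% of all genes, and at 11 in replicate 2, against 5.26%.

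**Figure D3:**
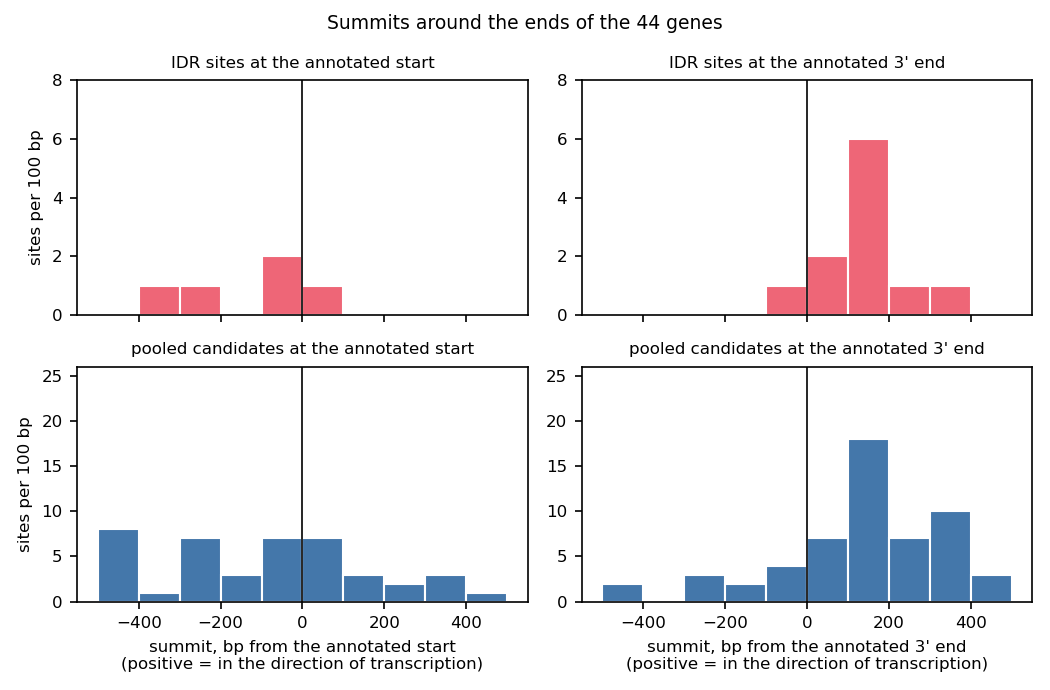
Number of summits per 100 bp against their distance from the annotated start (left) and the annotated 3′ end (right) of the 44 genes, for IDR sites (top) and pooled candidates (bottom). Of the 11 IDR summits at a 3′ end 10 lie past it, 6 of them between 100 and 200 bp, and of the 56 pooled summits there 45 lie past it. At starts, 4 of the 5 IDR summits and 26 of the 42 pooled summits lie upstream. The same positions were not counted for all genes.

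Together the 12 genes held 17 IDR sites, of which 16 lay within 500 bp of the gene's own start or 3′ end. The 11 summits at a 3′ end lay at a median of 171 bp past it, from 8 bp before it to 340 bp past it. The nearest end of any protein-coding gene was the gene's own for 10 of the 17, its own start for 3 and its own 3′ end for 7. For 3 sites it was the start of another gene and for 4 the 3′ end of another gene. Of the 5 sites at a start, 3 lay within 500 bp of the 3′ end of a gene ahead on the same strand (cyc-2.1, cyc-1 and nuo-2), so that start and 3′ end cannot be told apart there. No site lay within 500 bp of a tRNA, snoRNA or snRNA gene, and the nearest such gene was 7603 bp away.

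The arrangement of the neighbouring genes was described in the same way. Of the 12 members whose downstream neighbour lies within 500 bp and faces them, 4 had an IDR summit at the 3′ end (atp-1, cox-4, cyc-1 and ucr-2.3), against 9.67% of all protein-coding genes so arranged. At these 4 genes the 3′ end of the facing gene is also close, so which gene a site belongs to cannot be told. Of the 18 members whose neighbour lies within 500 bp on the same strand, 3 had one (atp-2, atp-5 and cyc-2.1), against 6.69% of all genes so arranged. Of the 14 with no neighbour within 500 bp, 3 had one (cox-5A, cox-5B and ucr-1), against 2.44% of all such genes. At starts, 3 of the 16 members with a gene within 500 bp ahead on the same strand had a summit, against 6.84% of all such genes. Of the 14 whose near neighbour is divergent 0 had one, against 5.81% of all such genes. Where the nearest gene ahead was over 500 bp away, 2 of 10 members with a divergent one had a summit (cox-5A and cox-5B). So did 0 of 4 with one on the same strand, and the share of all genes was not counted for this distance. With 4 to 18 members in each arrangement, no difference between arrangements was tested.

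The replicates were compared gene by gene for the 40 genes that had a candidate in both. Spearman's rho of the highest signal was 0.704, given as a description without a p, since the genes share the same 2 libraries and the control. All 17 IDR sites had a candidate within 250 bp in each replicate. In replicate 2 all 17 ranked among the strongest 1341 and in replicate 1 13 did. The 4 that did not were those at cox-4, atp-5, nuo-2 and the 3′ end of cox-5B. The 13 include both atp-1 summits, which had the same candidate in replicate 1. By gene, 11 of the 44 had a summit among the strongest 1341 of replicate 1, against 8.31% of all genes, and 13 among those of replicate 2, against 8.08%. Of the 12 genes with an IDR site, 9 were in both.

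**Figure D4:**
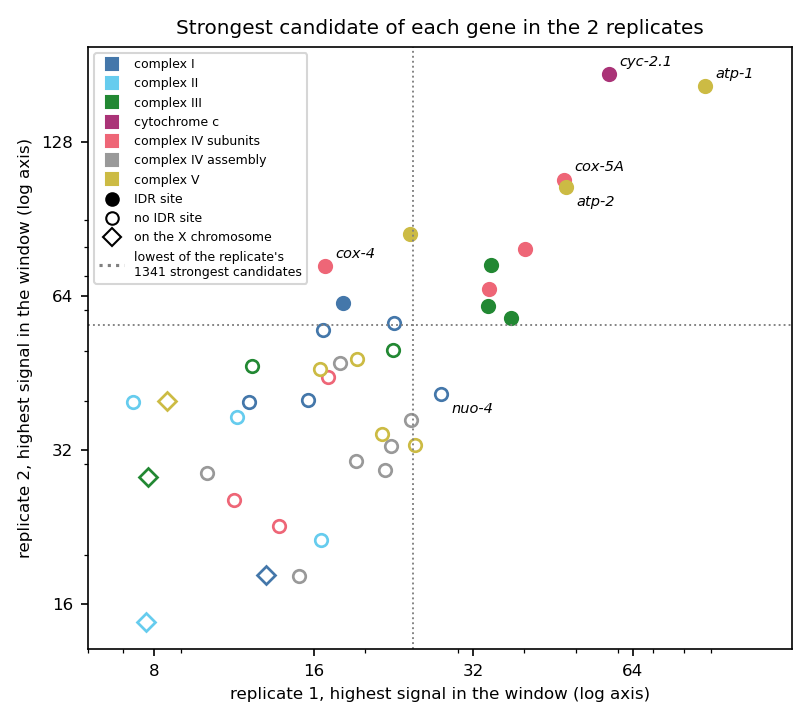
Highest signal in the window of each gene in replicate 1 (horizontal) and replicate 2 (vertical), both log axes, for the 40 genes with a candidate in both; dotted lines are the lowest signal of the strongest 1341 candidates, 24.6 in replicate 1 and 56.2 in replicate 2. The filled points, genes with an IDR site, lie above the horizontal line, and cox-4, nuo-2 and atp-5 lie left of the vertical one.

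By chromosome, the 12 genes with an IDR site were 5 of 12 members on chromosome I, 5 of 10 on III, 1 of 6 on IV and 1 of 5 on V. No site was found at the 5 members on II or the 6 on X. The share of all protein-coding genes with an IDR site was 12.8% on I, 12.5% on III, 10.4% on IV, 7.68% on II, 5.09% on V and 2.71% on X. The order is therefore shared in part with all genes, and members on X and all genes on X were both at the low end. On WBcel235 atp-1 spans 12652277 to 12654655 on the plus strand of I and cox-5B spans 9788725 to 9790050 on the same strand. Also on I, cyc-1 spans 8022674 to 8024422, nuo-2 spans 6530131 to 6531963 and cox-4 spans 13658171 to 13659128, all on the minus strand. On III, all on the plus strand, cox-6B spans 2699663 to 2786859 in Ensembl, atp-2 spans 5228417 to 5230536, cox-5A spans 12905491 to 12906619, ucr-1 spans 5592135 to 5594401 and ucr-2.3 spans 879860 to 881458. On the minus strand, atp-5 spans 11122901 to 11123867 on V and cyc-2.1 spans 4747895 to 4749012 on IV.

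Several subunits are encoded by paralogues, one of them autosomal and the others X-linked, and the pooled signal was higher at the autosomal copy in each of 4 families. The asb-1 gene on III had 67.4 and asb-2 on X had 38.8. The asg-1 gene on I had 64.1 and asg-2 on X had 24.1. The sdha-2 gene on I had 49.5 and sdha-1 on X had 16.9.

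For the core protein of complex III, ucr-2.3 on III had 84.5, while ucr-2.2 and ucr-2.1 on X had 30.7 and 22.0. In each replicate too the autosomal copy was above the X-linked ones in all 4 families, where asg-2 had no candidate in replicate 1 and ucr-2.1 none in replicate 2. The order of the 2 X-linked copies differed, as replicate 1 had 11.8 at ucr-2.1 and 7.78 at ucr-2.2. In replicate 2 the gap between asb-1, with 48.3, and asb-2, with 39.9, was small beside the others. The median of the highest pooled signal was 59.8 for the 38 autosomal members and 23.1 for the 6 X-linked ones. Over all protein-coding genes it was 19.4 on autosomes and 0 on X, so the X-linked members stood above the X median. Where copies are near-identical, reads may be shared or lost between them, and these values are then uncertain.

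**Figure D5:**
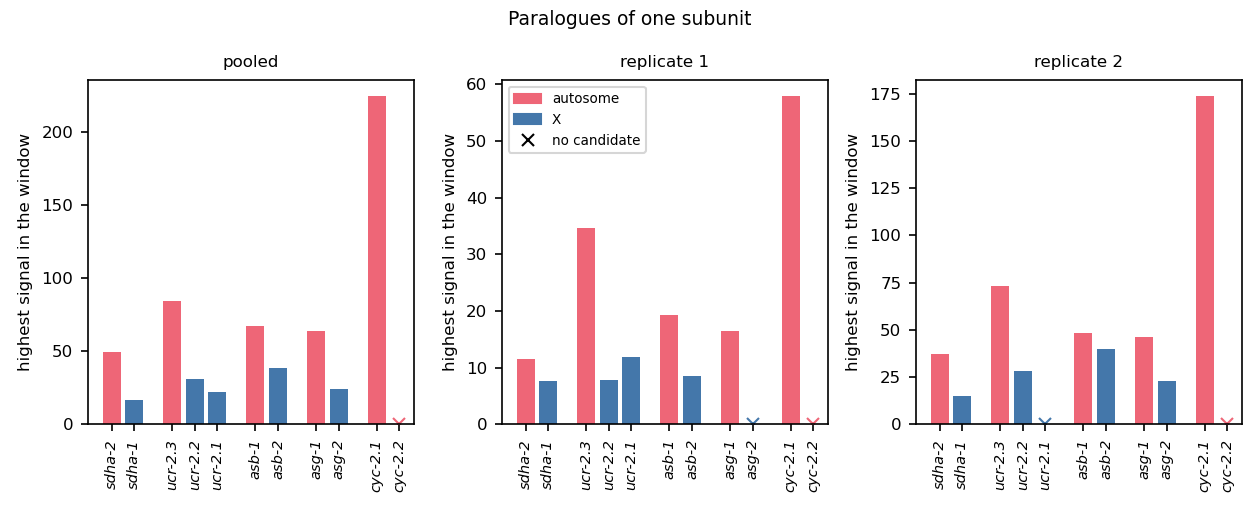
Highest signal in the window of each paralogue in the pooled list, in replicate 1 and in replicate 2 (panels have their own axes, since signals are comparable only within a list); red bars are autosomal copies, blue bars X-linked ones, and a cross marks no candidate. In the 4 families with both kinds the autosomal bar is the tallest in all 3 panels, and cyc-2.2 has no candidate beside cyc-2.1 at 224 in the pooled list.

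A further 44 genes of oxidative phosphorylation carry other symbols, and they were counted as the remainder of the pathway. They comprised 26 subunits of complex I, the cytochrome b subunit of complex II, mev-1, 6 genes of complex V and 11 assembly factors. IDR sites lay at 4 of these 44 (9.09%, interval 2.53 to 21.7%), which is close to the 8.17% of all genes. They were the assembly factor genes coa-4 with signal 105, nuaf-1 with 85.8 and coa-5 with 83.1, and nduc-2, a complex I subunit, with 97.9. All 4 lay at 3′ ends, at 162 bp past it for coa-4, 9 bp before it for nuaf-1, 361 bp past it for coa-5 and 140 bp past it for nduc-2. The median highest pooled signal of the 44 was 46.3. Among the 11 assembly factors, 3 had an IDR site and the median was 64.1. Over all 88 genes of the pathway 16 had an IDR site, or 18.2% (interval 10.8 to 27.8%).

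Sets of genes with related functions give the scale of these shares. Of the 81 cytosolic ribosomal protein genes 58 had an IDR site (71.6%, interval 60.5 to 81.1%), and their median highest pooled signal was 112. The citric acid cycle and pyruvate dehydrogenase genes stood at 23.8% (5 of 21, interval 8.22 to 47.2%), near the 27.3% of the 44 genes. Mitochondrial ribosomal protein genes stood at 11.4% (8 of 70, interval 5.07 to 21.3%). The oxidative phosphorylation genes thus lay between the cytosolic ribosomal protein genes and the share of all genes, and this order was not tested. The RNA level of the genes in these animals was not measured.

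The letters around the 17 summits were compared with those of other sites, within 150 bp on either side and on both strands. The polyadenylation signal AATAAA was found at 8 of the 17 (47.1%), against 59.7% of the 1319 nuclear IDR sites and 52.1% of the 29977 nuclear pooled candidates. The letters GAGAGA were found at 11.8% of the 17 sites, 22.7% of the nuclear IDR sites and 17.4% of the pooled candidates. A run of 8 T was found at 11.8% of the 17 sites, 23.2% of the nuclear IDR sites and 29.6% of the pooled candidates. The mean GC content was 38.4% at the 17 sites, 38.6% at the nuclear IDR sites and 37.4% at the pooled candidates. With 17 sites these shares move by several percent with 1 site, and no letter group was more frequent at them than at all nuclear IDR sites.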

How the data were processed

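Tagged HRDE-1 was measured by ChIP-seq in 2 biological replicates of 1 group. The authors deposited lists of sites per replicate, for the pooled reads and after an IDR threshold, on build ce11. The signal value of each site is the authors' deposited score, with its scale not stated in the files. Aligner, peak caller, software versions and the value of the IDR threshold: not given in the sources used here. The lists hold no read counts and do not show the depth of each sample. A control alignment and the lists on the earlier build ce10 were not used here.

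Summit positions, counted from 1, were set against the WBcel235 annotation (Ensembl release 115, 46926 genes), whose chromosome lengths contain all sites of the lists. Sequences were read from the RefSeq copy of the same assembly. Distances are positive in the direction of transcription. Counting used Python 3.11.15, pandas 2.3.3, numpy 2.4.6 and scipy 1.17.1, and was tested on simulated data with summits planted at known places.

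The members and gene lists were chosen with earlier results of these data known. No test was possible with 1 group and lists without counts. Named were all members with an IDR site, the 8 others with the highest pooled signal, the genes of complex II, the paralogues and the other genes of the pathway with an IDR site; further names were added to place a range or to describe a site. Alternatives were other flanks, interval overlap, the stronger IDR sites, single replicates, other members, nearest ends and RefSeq gene ends, the last added after the data were seen.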

Additional observations from a re-analysis of the deposited data

How the results depend on the processing

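The 12 genes with an IDR site became 3 without a flank, and 6 when the strongest 670 IDR sites were used, where the shares of all protein-coding genes were 3.11% and 4.22%. At starts, 5 genes became 3 with 200 bp on either side (all genes 1.56%) and 3 with the strongest 670 IDR sites (all genes 1.38%), and at 3′ ends 10 became 5 with these (all genes 2.76%). Single replicates gave 11 to 13 genes in the window, 5 at starts, 9 to 11 at 3′ ends, and 41 to 42 with any candidate. With 200 bp, 1000 bp, interval overlap, small RNA sites left out or RefSeq gene ends, the window count was 12, 13, 12, 12 and 11. With only summits nearest to the gene's own ends it was 8. The share of all protein-coding genes was 6.28% with 200 bp and 9.21% with 1000 bp. No such share is given for the other settings of this window count, so those counts lack a background. Complex I had 2 genes in replicate 2 alone, and the complex IV subunits had 3 with RefSeq gene ends. No paired analysis was possible because there was 1 group. The 2 replicates, the unknown depth and the few genes per complex limit how finely the complexes can be ordered.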

Other observations

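The citric acid cycle and pyruvate dehydrogenase supply the NADH and succinate that complexes I and II use. Of their 21 genes, 5 had an IDR site (23.8%, interval 8.22 to 47.2%), against 8.17% of all protein-coding genes. These 5 genes were chosen for naming after their values were seen. Aconitase, aco-2, had signal 179 at 56 bp past its 3′ end, citrate synthase, cts-1, had 129 at 43 bp past it, and the malate dehydrogenase gene mdh-2 had 111 at 199 bp past it. The second malate dehydrogenase gene, mdh-1, had 82.0 at 179 bp past its 3′ end, and pdha-1, for the E1 alpha subunit of pyruvate dehydrogenase, had 88.4 at 70 bp inside its start. Of these 5 genes, 4 therefore had the site past the 3′ end. The median highest pooled signal of the 21 genes was 49.7, against 53.4 for the 44 oxidative phosphorylation genes.

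Mitochondrial ribosomal protein genes serve the translation of the mitochondrial subunits. An IDR site lay at 8 of 70 of them (11.4%, interval 5.07 to 21.3%), against 8.17% of all protein-coding genes. In the IDR list, starts were marked at 5 of the 70 (7.14%, all genes 2.91%) and 3′ ends at 3 (4.29%, all genes 5.36%). Outside the gene, the upstream and the downstream flank each held an IDR summit at 3 of the 70. The order was the reverse among the strongest candidates of single replicates, taken to the length of the IDR list. Replicate 1 had 2 genes marked at starts and 5 at 3′ ends. Replicate 2 had 4 at starts and 5 at 3′ ends. At the 44 oxidative phosphorylation genes the counts in the IDR list were 5 at starts (11.4%) and 10 at 3′ ends (22.7%). The difference between the groups in the order of starts and 3′ ends was not tested.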
